A study of Mus musculus with 10 samples.

Results

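The genes of TGF-beta, bone morphogenetic protein (BMP) and activin signalling were examined in isolated islets of the mouse pancreas, small clusters of endocrine cells. They were chosen by symbol as the TGF-beta ligands and receptors, the BMPs and growth differentiation factors, the inhibin and activin subunits, the activin receptors and the Smads, with Lefty1, Lefty2, Nodal, Tdgf1, Fst and Fstl3 added. This gave 57 of the 19938 genes measured, each by 1 probe set of a whole-transcript array. The 2 groups were inbred strains without transgene or treatment contrast. The first group was the C3H strain (C3HeB/FeJ), with 5 arrays. The other was the diabetes-prone NZO strain (NZO/Hl), also with 5 arrays. All mice were male and 6 weeks old, and they were fed, from weaning (21 days of age), a high-fat diet in which fat supplied 45% of calories. The isolated islets of both strains were held overnight in medium with 10 mM glucose. The series was made to find islet genes that carry C3H-specific variants in a segment of chromosome 7 between 30 and 46 Mb, and 0 members start in that segment in the assembly GRCm38.p6.

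Ligands of this family are secreted dimers that bind a pair of type II and a pair of type I receptor kinases. The type I receptor then phosphorylates receptor-regulated Smads, Smad2 and Smad3 for TGF-beta, activin and nodal, and Smad1, Smad5 and Smad9 for BMPs, which enter the nucleus with Smad4. Smad6 and Smad7 inhibit the receptors, and secreted antagonists such as follistatin and the Lefty proteins act on the ligands. In islets the pathway is known for effects on beta cell identity, proliferation and insulin secretion, and in the exocrine pancreas for the activation of stellate cells.

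Values are log2 expression values, so a difference of 1 is a doubling of the measured signal, and the brightness of a probe set cannot be set against that of another. The array medians over the measured genes lay between 7.46 and 7.55 and the 25th percentiles between 6.17 and 6.45. There was no detection call, so a value under the 25th percentile of its array is described here as not shown to be above background, and no fold is given for it. The hormone genes of the main islet cell types were bright on all arrays of both strains, with Ins2 at 12.22 or above, Gcg at 13.01 or above, Sst at 12.84 or above and Ppy at 13.22 or above. Ins2 and Gcg did not pass, whereas Sst (-0.75, limma adjusted p = 0.000379) and Ppy (-0.41, limma adjusted p = 0.00465) were lower in NZO with no overlap. Tissue makeup differed between the arrays. The mean log2 value of 25 acinar genes, called the acinar score, was 8.01 to 8.78 in C3H. In NZO it reached 11.26 (replicate 4) and 11.09 (replicate 5), while the remaining arrays of this strain lay between 9.50 and 10.01, and 21 of the genes passed as higher and 0 as lower. The score of 17 macrophage genes was 7.44 to 7.57 in C3H, and in NZO 8.41 (replicate 4), 8.58 (replicate 5) and 7.50 to 7.91 elsewhere (7 higher, 1 lower). That of 16 stellate cell and fibroblast genes was 8.39 to 8.61 in C3H, and in NZO 9.25 (replicate 4), 9.30 (replicate 5) and 8.21 to 8.72 elsewhere, lowest on replicate 2 (2 higher, 0 lower). The score of 14 endothelial genes was 8.84 to 9.08 in C3H and 8.90 to 9.20 in NZO (3 higher, 0 lower). The duct score (9 genes, 3 higher, 0 lower) separated the strains on every array, at 8.91 to 9.13 in C3H and 9.18 to 9.99 in NZO. The score of 8 delta and PP cell genes did so in the other direction (10.02 to 10.29 in C3H, 9.48 to 9.68 in NZO; 6 lower, 0 higher), as did that of 5 alpha cell genes (10.24 to 10.27 in C3H, 9.90 to 10.09 in NZO; 2 lower, 0 higher). The score of 13 beta cell genes was 11.51 to 11.61 in C3H, 11.14 to 11.53 on the NZO arrays up to replicate 3, and 10.82 and 10.95 on the last NZO arrays (5 lower, 0 higher). The titles of the other 8 arrays end in 2 numbers, that of NZO replicate 4 in 1 number and that of NZO replicate 5 in 2 joined by a hyphen, and the labels do not say what these numbers mean. In whole islets, a change in the number of cells of a type and a change in RNA per cell cannot be told apart.

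The strains differed in a small number of these genes, in both directions. Of the 57 members, 3 were higher in NZO (Bmp2, Smad3 and Smad1) and 4 were lower (Lefty1, Bmpr1b, Smad9 and Tgfbr3) at a limma adjusted p below 0.05, with p-values adjusted over all genes. These are 5.26% and 7.02% of the members, where 5.47% of all genes tested passed as higher and 4.61% as lower, or 10.1% in either direction. At this threshold the share of members that passed was thus close to that of the array as a whole. An unadjusted limma p below 0.05 was found for 21 of the 57 members and for 4350 of all 19938 genes tested. The difference was above 0 in 63.2% of the members and in 44.8% of all genes. The median difference was 0.05 over the members and -0.02 over all genes tested. In 6 members the strains did not overlap (10.5%, against 9.14% of all genes). Without NZO replicates 4 and 5, 4 members passed, namely Bmp2 higher and Lefty1, Bmpr1b and Smad9 lower, where 3.07% of all genes passed as higher and 2.47% as lower. With the acinar score as a covariate beside strain, Lefty1 alone passed, where 0.612% of all genes passed as higher and 0.507% as lower, 1.12% in all.

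**Figure D1:**
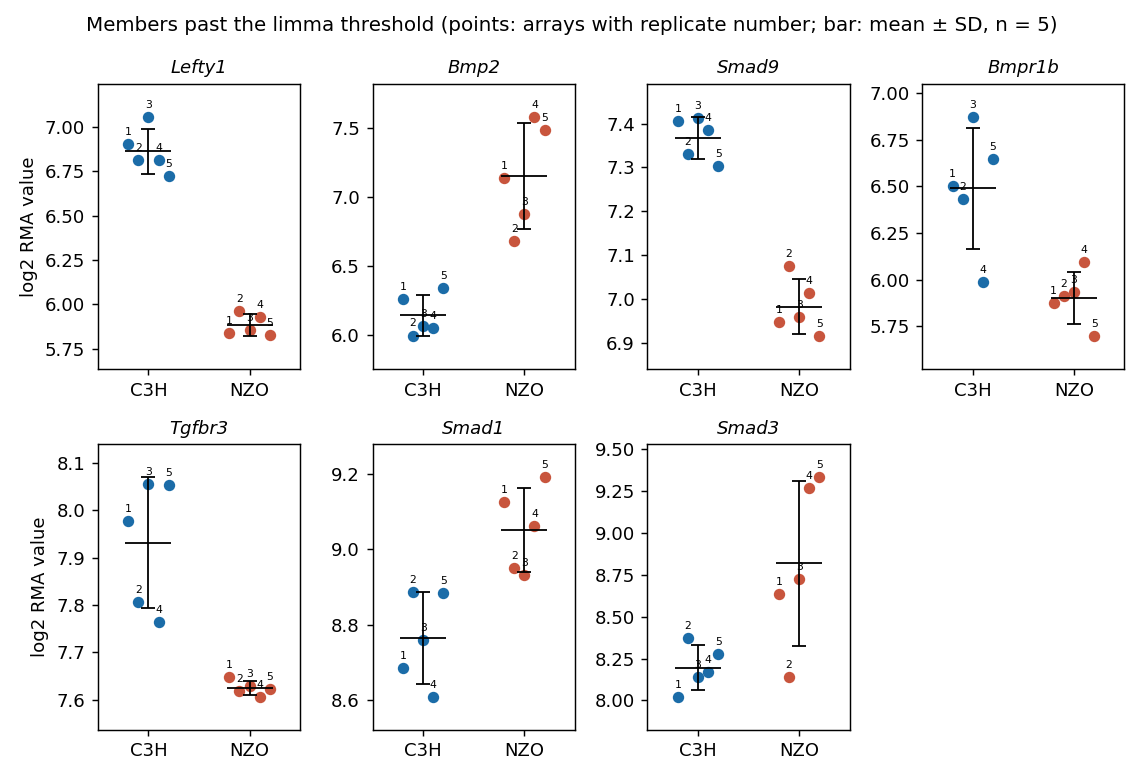
Log2 expression values of the 7 members that passed the limma threshold, by strain, with 1 point per array, the replicate number beside it, and the mean ± SD over 5 arrays. In Lefty1, Bmp2, Smad9, Tgfbr3 and Smad1 all 5 NZO arrays lie on 1 side of all 5 C3H arrays, while in Bmpr1b and Smad3 the strains overlap. Each panel has its own vertical scale, which does not start at 0.

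Lefty1, a secreted inhibitor of nodal signalling, showed the member difference with the smallest p. It measured 6.91, 6.81, 7.06, 6.81 and 6.73 on the C3H arrays and 5.84, 5.97, 5.86, 5.93 and 5.83 on the NZO arrays. All C3H values were higher than all NZO values. The difference NZO minus C3H was -0.98 (SE 0.08, limma adjusted p = 1.77e-06). All 5 NZO values lay under the 25th percentile of their arrays and all C3H values above it, so the transcript was not shown to be above background in NZO and the size of the difference is not settled. Set against the 25th percentiles of the NZO arrays in place of the NZO values, the C3H mean gave a difference of -0.61. The difference was -0.97 without NZO replicates 4 and 5 and -1.03 with the acinar score as a covariate (limma adjusted p = 0.00561). Over 19 other settings Lefty1 stayed past the threshold in 19, at values from -1.03 to -0.93.

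The other antagonists did not pass. Lefty2, a close paralog of Lefty1 whose transcript may share probes with it, was under the 25th percentile on all 10 arrays and differed by 0.04 (95% confidence interval -0.23 to 0.31). Follistatin (Fst), which binds and neutralises activins, measured 6.91, 6.87, 6.82, 7.06 and 6.90 in C3H and 7.03, 6.92, 7.26, 7.61 and 7.57 in NZO. NZO replicates 4 and 5 held its highest values, and the other NZO arrays reached down into the C3H range. Its difference was 0.36 (SE 0.12, limma adjusted p = 0.0853), or 0.16 without those 2 arrays. Fstl3, a follistatin-like activin inhibitor, differed by 0.30 (SE 0.12, limma adjusted p = 0.137), or 0.11 without them.

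Bmp2 was the only one of 18 BMP and growth differentiation factor genes that passed (5.56%, against 10.1% of all genes tested). It measured 6.26, 6.00, 6.06, 6.05 and 6.34 in C3H and 7.14, 6.68, 6.88, 7.58 and 7.49 in NZO. The strains did not overlap, and NZO replicates 4 and 5 were the highest. The difference was 1.01 (SE 0.15, limma adjusted p = 0.000591), and 3 of 5 C3H values were under the 25th percentile of their arrays. Without NZO replicates 4 and 5 it was 0.76 (limma adjusted p = 0.00157), and with the stellate and fibroblast score as a covariate 0.74 (limma adjusted p = 0.000729). With the acinar score as a covariate it was 0.24 (SE 0.21) and did not pass. Because that score differs between the strains, the covariate would widen the SE of a strain difference 2.06-fold at an unchanged residual spread. The fitted SE of Bmp2 went from 0.15 to 0.21, and its difference from 1.01 to 0.24.

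Bmp6, a BMP ligand best known for the control of hepcidin and iron, did not overlap either but missed the threshold. Its C3H values were 7.50, 7.65, 7.34, 7.61 and 7.68 and its NZO values 7.72, 7.76, 7.80, 7.99 and 7.95, which differ by 0.29 on average (SE 0.09, limma adjusted p = 0.0512). The exact permutation test, two-sided and unadjusted, gives 0.00794 to any gene whose strains do not overlap. That is the smallest p that 252 splits allow, so here it adds nothing to the lack of overlap. Bmp4 measured 6.93 to 7.15 in C3H (median 7.06) and 6.91 to 7.38 in NZO (median 7.08), and its difference was 0.05 (95% confidence interval -0.16 to 0.25). The other 15 ligands of this group differed by -0.16 (Gdf3) to 0.22 (Bmp8b). Bmp8a and Bmp8b are near-identical copies, and which copy each probe set measured is uncertain. Bmp10 and Gdf2, ligands of the endothelial receptor Acvrl1, were under the 25th percentile on all 10 arrays. Gdf1, Gdf15 and Tgfbr3l were not analysed here.

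**Figure D2:**
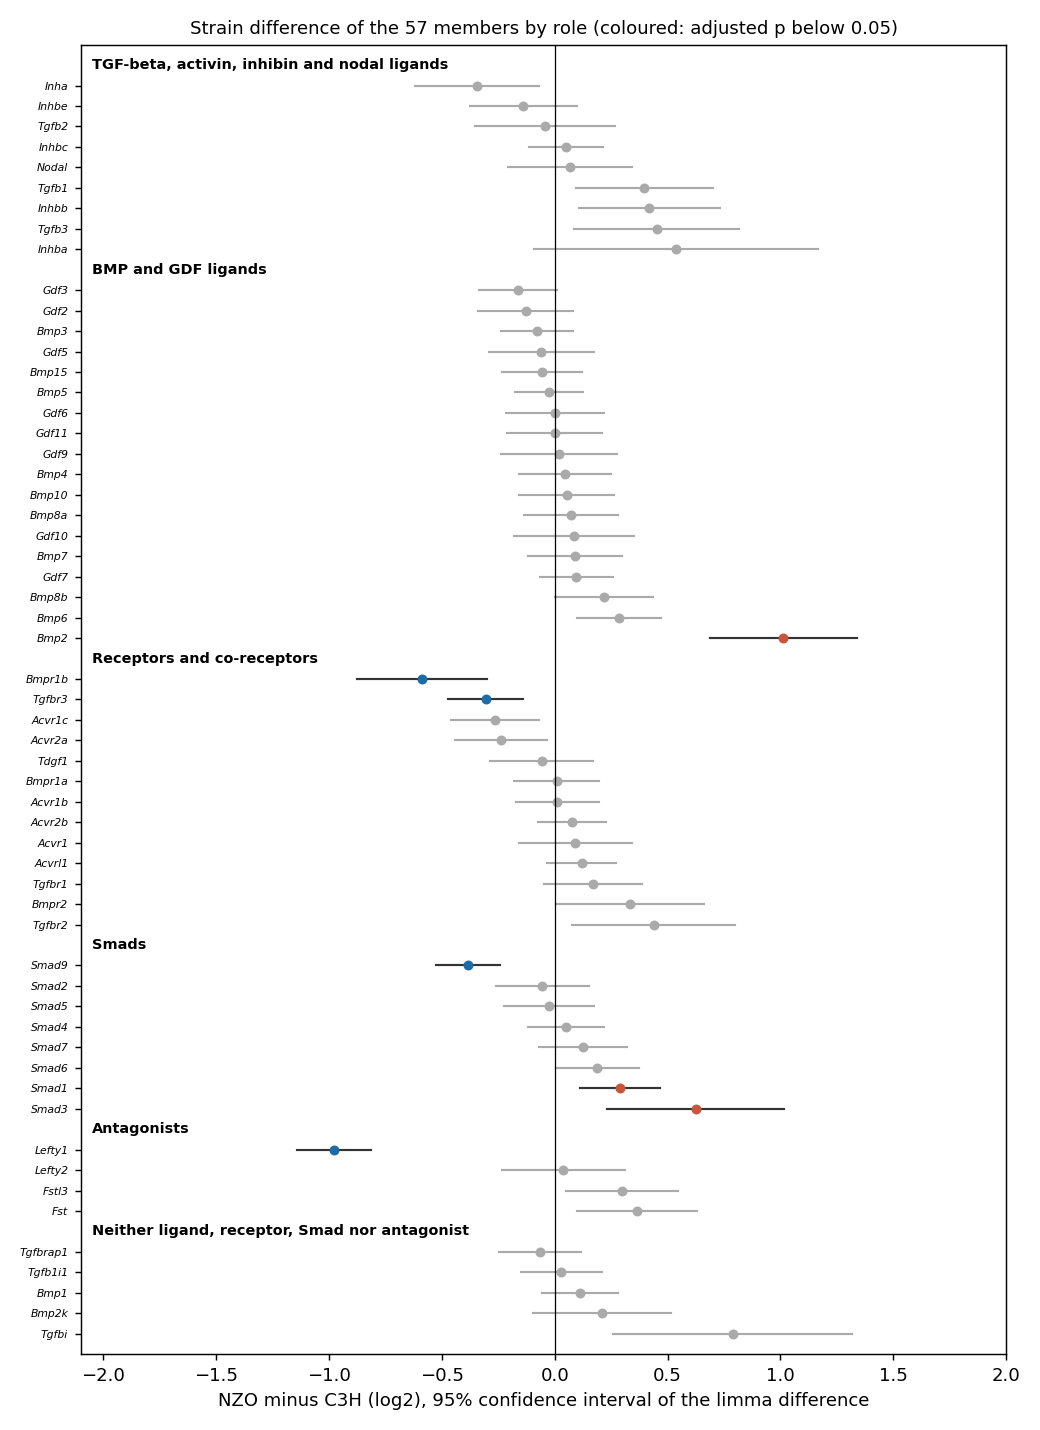
Difference NZO minus C3H in log2 units of each of the 57 members, ordered within roles, with the 95% confidence interval of the limma difference. Coloured points passed at an adjusted p below 0.05 over all genes (red higher in NZO, blue lower), grey points did not. The 7 coloured points lie among the BMP ligands, the receptors, the Smads and the antagonists, and none among the TGF-beta, activin, inhibin and nodal ligands.

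Of the 9 TGF-beta, activin, inhibin and nodal ligand genes, 0 passed the limma threshold, where 10.1% of all genes tested passed. The unadjusted limma p was below 0.05 for 4350 of all 19938 genes tested and for 4 of this group (Inhbb, Tgfb1, Inha and Tgfb3). Inhba, which encodes the subunit of activin A, was one of the brightest members and varied most widely among the arrays of this group. It measured 10.63, 11.39, 10.67, 10.60 and 11.03 in C3H and 10.99, 10.30, 11.54, 12.30 and 11.88 in NZO. NZO replicate 2 was the lowest of all 10 arrays and NZO replicate 4 the highest, so the NZO range enclosed that of C3H. The difference was 0.54 (SE 0.29, limma adjusted p = 0.326), 0.08 without NZO replicates 4 and 5 and -0.08 with the stellate and fibroblast score as a covariate.

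Tgfb1, the TGF-beta form made by many immune and stromal cells, measured 9.35, 9.44, 9.38, 9.23 and 9.44 in C3H and 9.55, 9.36, 9.63, 10.02 and 10.27 in NZO. Tgfb3 measured 7.03, 7.37, 7.17, 6.87 and 7.19 in C3H and 7.49, 6.92, 7.55, 7.94 and 8.01 in NZO. In both genes NZO replicates 4 and 5 were the highest of all arrays and NZO replicate 2 lay within the C3H range. The differences were 0.40 (SE 0.14, limma adjusted p = 0.102) for Tgfb1 and 0.45 (SE 0.17, limma adjusted p = 0.123) for Tgfb3, or 0.14 and 0.19 without those 2 arrays. Tgfb2 differed by -0.04 (95% confidence interval -0.36 to 0.27).

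Inhbb, which encodes the subunit of activin B, did not follow the same arrays. It measured 8.30, 8.36, 8.35, 8.23 and 8.59 in C3H and 9.25, 8.23, 8.81, 8.91 and 8.71 in NZO, with the highest value on NZO replicate 1. Its difference was 0.42 (SE 0.15, limma adjusted p = 0.0908) and 0.40 without NZO replicates 4 and 5. Inha, whose product joins the activin subunits to form inhibins that oppose activin, measured 8.16 to 8.39 in C3H (median 8.31) and 7.65 to 8.40 in NZO (median 7.75). It was lower than every C3H array on 4 of 5 NZO arrays but not on NZO replicate 1, and its difference was -0.34 (SE 0.13, limma adjusted p = 0.116).

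**Figure D3:**
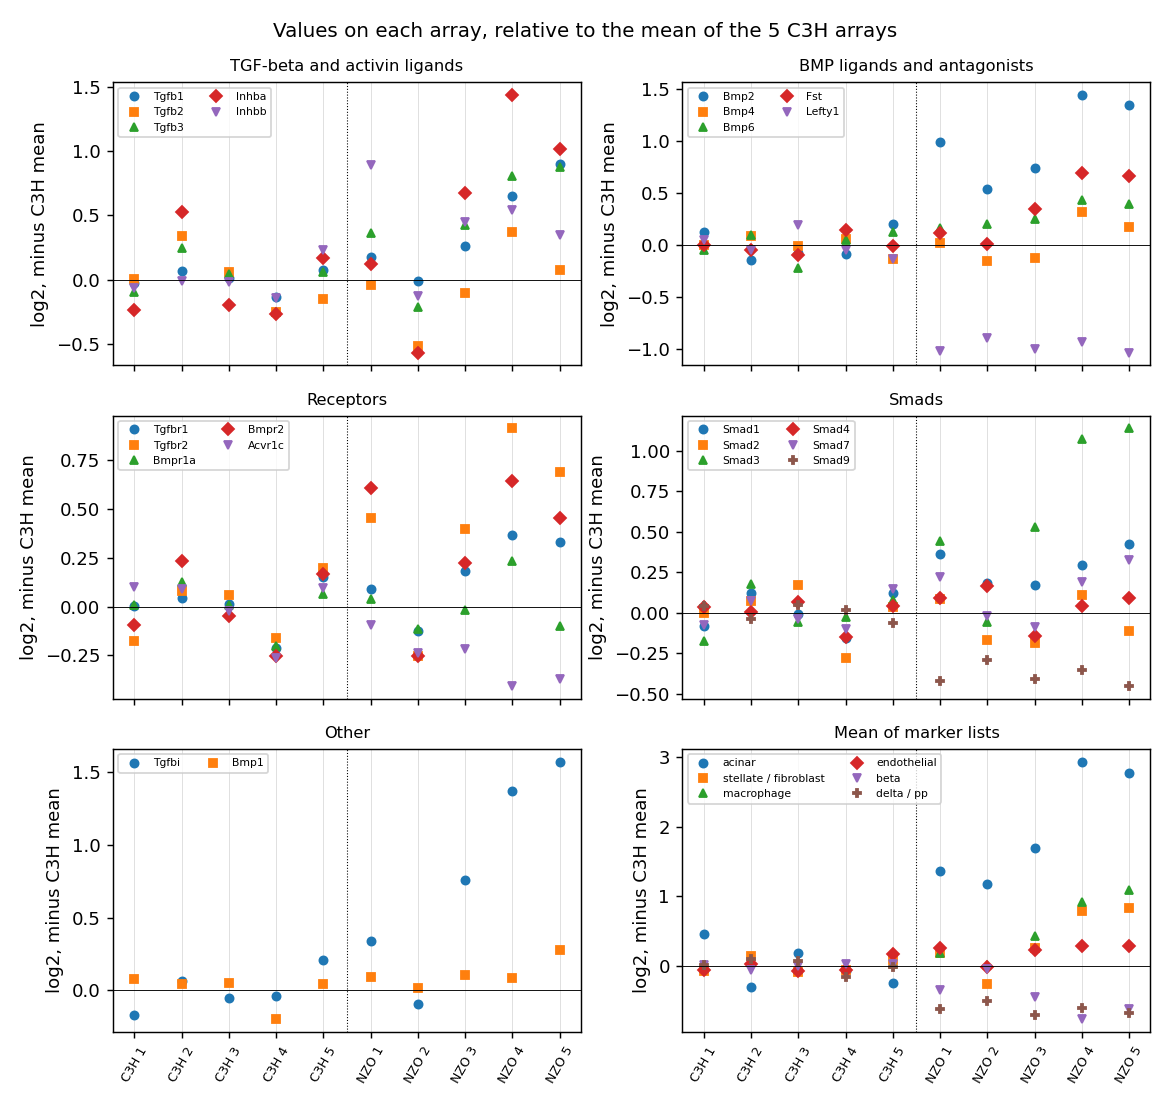
Values of named members and means of marker lists on each array, in log2 units relative to the mean of the 5 C3H arrays, with C3H to the left of the dotted line and NZO to the right. Tgfb1, Tgfb3, Inhba, Fst, Tgfbr2, Smad3 and Tgfbi are highest on NZO replicates 4 and 5, the arrays with the highest acinar, macrophage and stellate scores, while Smad9 and Lefty1 are lower than in C3H on all 5 NZO arrays, Lefty1 at values under the 25th percentile there.

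Among the 13 receptor and co-receptor genes, Bmpr1b and Tgfbr3 were lower in NZO and 0 were higher. This is 15.4%, where 10.1% of all genes tested passed in either direction. An unadjusted p below 0.05 in limma was found for 6 of the 13, and for 4350 of all 19938 genes tested. Bmpr1b, a type I receptor of BMPs, measured 6.50, 6.43, 6.87, 5.99 and 6.65 in C3H and 5.87, 5.91, 5.93, 6.09 and 5.70 in NZO. C3H replicate 4 lay within the NZO range, and the other C3H arrays above it. The difference was -0.59 (SE 0.13, limma adjusted p = 0.0115), -0.58 without NZO replicates 4 and 5, and -0.71 without C3H replicate 4. All 5 NZO values were under the 25th percentile of their arrays, and against those percentiles the difference was -0.24. Tgfbr3, or betaglycan, a co-receptor that presents TGF-beta2 and also binds inhibin, measured 7.98, 7.81, 8.06, 7.76 and 8.05 in C3H and 7.65, 7.62, 7.63, 7.61 and 7.62 in NZO. The strains did not overlap, and the NZO values were almost equal (SD 0.02 against 0.14 in C3H). Its level was 1.24-fold lower in NZO (difference -0.31, SE 0.08, limma adjusted p = 0.0192). That call ended on removal of C3H replicate 1, 3 or 5 (limma adjusted p up to 0.0639) and without NZO replicates 4 and 5 (-0.30, limma adjusted p = 0.113), with little change in size.

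The remaining receptors did not pass. Acvr1c (ALK7), a type I receptor for activin B, GDF3 and nodal that is known from islets and adipose tissue, measured 6.79, 6.77, 6.66, 6.42 and 6.78 in C3H and 6.59, 6.45, 6.47, 6.28 and 6.31 in NZO. C3H replicate 4 lay among the NZO arrays, and the difference was -0.26 (SE 0.09, limma adjusted p = 0.0862). Tgfbr2, the type II receptor of TGF-beta, measured 7.84, 8.09, 8.07, 7.85 and 8.21 in C3H and 8.46, 7.76, 8.40, 8.92 and 8.70 in NZO, so that NZO exceeded C3H by 0.44 on average (SE 0.17, limma adjusted p = 0.131). NZO replicate 2 was the lowest of all arrays and replicates 4 and 5 the highest. Its type I partner Tgfbr1 differed by 0.17 (95% confidence interval -0.05 to 0.38). Bmpr2 and Bmpr1a, a type II and a type I receptor of BMPs, were among the brightest members, and differed by 0.33 (95% confidence interval 0.01 to 0.66, limma adjusted p = 0.220) and 0.01 (95% confidence interval -0.18 to 0.20). The activin type II receptor Acvr2a differed by -0.24 (SE 0.10, limma adjusted p = 0.152), and Acvr1, Acvr1b, Acvr2b, Acvrl1 and Tdgf1 by -0.06 to 0.12.

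Among the 8 Smads, Smad3 and Smad1 were higher in NZO and Smad9 was lower. This is 37.5% of a small group, where 10.1% of all genes tested passed in either direction. Smad1 and Smad9 are both receptor-regulated Smads of the BMP branch, and they differed in opposite directions. Smad9 measured 7.41, 7.33, 7.41, 7.39 and 7.30 in C3H and 6.95, 7.08, 6.96, 7.01 and 6.92 in NZO. The strains did not overlap. Its level was 1.30-fold lower in NZO (difference -0.38, SE 0.07, limma adjusted p = 0.00167), -0.37 without NZO replicates 4 and 5 (limma adjusted p = 0.0186), and -0.37 at an SE of 0.15 once the acinar covariate was added, which ended the call. Smad1 measured 8.69, 8.89, 8.76, 8.61 and 8.88 in C3H and 9.13, 8.95, 8.93, 9.06 and 9.19 in NZO. The strains were separate by a small gap, and the level was 1.22-fold higher in NZO (difference 0.29, SE 0.08, limma adjusted p = 0.0400). Leaving out C3H replicate 1 or 3 or NZO replicate 1, 4 or 5 each ended that call (limma adjusted p up to 0.113). Smad5, the remaining Smad of the BMP branch, differed by -0.03 (95% confidence interval -0.22 to 0.17).

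Smad3, a receptor-regulated Smad of the TGF-beta and activin branch, measured 8.02, 8.37, 8.14, 8.17 and 8.28 in C3H and 8.64, 8.14, 8.72, 9.27 and 9.33 in NZO. NZO replicate 2 lay within the C3H range and NZO replicates 4 and 5 were the highest. The level was 1.54-fold higher in NZO (difference 0.62, SE 0.18, limma adjusted p = 0.0432). The difference was 0.30 without NZO replicates 4 and 5 (limma adjusted p = 0.296) and -0.26 with the acinar score as a covariate (SE 0.27), and it passed in 2 of the 10 fits that each left out a single array, those without NZO replicate 1 or 2. The part of tissue makeup in the Smad3 difference was not tested beyond these fits. Smad2, which acts beside Smad3, differed by -0.06 (95% confidence interval -0.26 to 0.15), and the shared partner Smad4, one of the brightest members, by 0.05 (95% confidence interval -0.12 to 0.22). The inhibitory Smads differed by 0.19 (Smad6, limma adjusted p = 0.215) and 0.13 (Smad7, limma adjusted p = 0.505).

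The 250 bases before the start of the Smad genes that passed are shown because 2 of these genes share a branch of the pathway and differed in opposite directions. They are RefSeq sequences of the build GRCm38.p6, 5′ to 3′ on the strand of the gene. The sequences of C3H and NZO were not examined, and a link between these windows and the strain differences was not tested. The windows are chr8:79399429-79399678 on the minus strand for Smad1, chr3:54755332-54755581 on the plus strand for Smad9 and chr9:63757995-63758244 on the minus strand for Smad3. Capitals mark the motif GGCGCC, a GC-rich Smad site, and other GC-rich sites were not searched. The Smad box CAGAC and the palindrome GTCTAGAC, searched on both strands, were not found in these windows.
Smad1: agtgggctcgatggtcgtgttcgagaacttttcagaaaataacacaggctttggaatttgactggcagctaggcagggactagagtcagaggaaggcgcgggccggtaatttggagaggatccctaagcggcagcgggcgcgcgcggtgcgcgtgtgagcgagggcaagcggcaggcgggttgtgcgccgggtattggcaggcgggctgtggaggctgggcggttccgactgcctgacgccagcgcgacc
Smad9: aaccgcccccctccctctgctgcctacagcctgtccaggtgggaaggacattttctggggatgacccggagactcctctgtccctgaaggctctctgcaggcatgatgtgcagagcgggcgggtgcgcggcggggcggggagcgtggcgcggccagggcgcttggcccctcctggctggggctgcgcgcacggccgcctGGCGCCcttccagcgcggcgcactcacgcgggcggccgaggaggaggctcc
Smad3: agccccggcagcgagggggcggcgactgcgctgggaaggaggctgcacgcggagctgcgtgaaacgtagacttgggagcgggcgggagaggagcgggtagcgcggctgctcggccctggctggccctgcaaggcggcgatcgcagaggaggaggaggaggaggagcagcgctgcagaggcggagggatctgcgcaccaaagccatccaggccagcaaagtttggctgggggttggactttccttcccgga
The Smad9 window held 1 copy of GGCGCC, and 9.54% of 27025 windows of this length hold at least 1. CAGAC was in 42.1% of all windows and GTCTAGAC in 0.174%. Of the 57 members, 39 had an entry, of which 15.4% held GGCGCC and 41.0% CAGAC. The GC content was 63.6% for Smad1, 73.2% for Smad9 and 69.2% for Smad3.

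Of the 5 members that match by name but are neither ligand, receptor, Smad nor antagonist, 0 passed in limma, where 10.1% of all genes did. Only 1, Tgfbi, had an unadjusted p below 0.05, as had 4350 of all 19938 genes tested. Tgfbi encodes a secreted matrix protein that TGF-beta induces. It measured 9.07, 9.30, 9.18, 9.20 and 9.44 in C3H and 9.58, 9.14, 10.00, 10.61 and 10.81 in NZO. Its high values fell on NZO replicates 3, 4 and 5, while NZO replicate 2 lay within the C3H range. The difference was 0.79 (SE 0.25, limma adjusted p = 0.0596), 0.33 without NZO replicates 4 and 5 and -0.53 with the acinar score as a covariate. Bmp1, a metalloprotease that processes procollagen and chordin, differed by 0.11, the kinase gene Bmp2k by 0.21, the focal adhesion gene Tgfb1i1 by 0.03 and the receptor-associated gene Tgfbrap1 by -0.07, with 95% confidence intervals that all include 0.

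NZO replicates 4 and 5 held the 2 highest values of the 10 arrays in 14 of the 57 members (24.6%), where they did so in 8.20% of all genes tested. The 14 were Tgfb1, Tgfb3, Inhba, Bmp2, Bmp4, Bmp6, Gdf10, Tgfbr1, Tgfbr2, Acvr1, Smad3, Fst, Fstl3 and Tgfbi. The same arrays held the highest values in 14 of 16 stellate cell and fibroblast genes, 15 of 17 macrophage genes, 23 of 25 acinar genes, 6 of 9 duct genes and 3 of 14 endothelial genes, and in 1 of 5 alpha, 0 of 13 beta and 0 of 8 delta and PP cell genes. Leaving out NZO replicate 2 raised the number of members higher in NZO from 3 to 13, at 4 lower. Among the 13 were Tgfb1, Tgfb3, Tgfbr2, Inhba, Inhbb and Tgfbi. Calls over all genes, in either direction, rose from 2010 to 2473. Of the NZO arrays, replicate 2 had the lowest stellate, acinar, macrophage, endothelial and duct scores. Its beta, alpha and delta and PP scores were the highest of that strain. Leaving out NZO replicate 1 gave 5 higher members, with 2072 calls over all genes. Leaving out C3H replicate 1 or 3 or NZO replicate 4 or 5 gave 1, namely Bmp2, with 1441 to 1525 calls over all genes. Lefty1, Smad9 and Tgfbr3 were lower on all NZO arrays, and so were the alpha and the delta and PP scores. Every gene or score that is split by strain in this direction has that pattern, so no link between these members and those cell types can be read from it. The part of these cell types in the member differences was not tested beyond the acinar and stellate covariates.

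Other genes of the pathway were taken from lists by role, and 13 of 100 measured genes passed, 9 higher and 4 lower, or 13% against 10.1% of all genes. Their median difference was 0.07. In the 9 higher genes NZO replicates 4 and 5 held the 2 highest values, and 2 of the 9, Thbs1 and Ltbp2, passed without these arrays, whereas the 4 lower genes all passed without them. Over all 100 measured pathway genes these arrays held the 2 highest values in 40%, against 8.20% of all genes tested. The list of extracellular antagonists, latency proteins and co-receptors had 6 higher and 2 lower of 39 (median 0.12), the list of Smad partners and regulators 2 higher and 1 lower of 34 (median 0.01), and the list of target genes 4 higher and 1 lower of 33 (median 0.13). Thbs1 and Ltbp2 stand on the first list and the target list, and Pmepa1 on the Smad regulator list and the target list.

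Outside the cell, Fstl5, a follistatin-like gene, was lower in NZO. It measured 6.65, 7.58, 7.25, 6.50 and 6.93 in C3H and 5.67, 5.33, 5.71, 5.54 and 5.68 in NZO, with all NZO values under the 25th percentile of their arrays (difference -1.40, SE 0.17, limma adjusted p = 9.25e-05). The size of that difference is not settled, and against those percentiles it was -0.73. Nbl1, a secreted BMP antagonist of the DAN family, was 1.75-fold lower (8.80 ± 0.34 in C3H, 7.99 ± 0.34 in NZO, SD, n = 5 each; difference -0.81, limma adjusted p = 0.00766). Higher in NZO were Thbs1, whose product can activate latent TGF-beta (1.79-fold, difference 0.84, SE 0.17), the microfibril gene Ltbp2 (0.53, SE 0.11), the endothelial co-receptor Eng (0.39, SE 0.09) and the secreted protease Htra1 (0.45, SE 0.11). The latent TGF-beta binding gene Ltbp1 (0.65, SE 0.17) and Lrrc32, whose product holds latent TGF-beta at the cell surface (0.65, SE 0.19), passed as well and are named after their values were seen. Lrrc32 passed in 2 of the 10 fits that each left out an array, those without NZO replicate 1 or 2, with a highest limma adjusted p of 0.115 over all 10, and its difference was 0.34 without NZO replicates 4 and 5. Ltbp1 and Htra1 each lost the call when any of C3H replicates 1 and 3 and NZO replicates 4 and 5 was removed, and Eng without C3H replicate 1. Eng is also one of the 14 endothelial genes.

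Among the Smad partners and regulators, the deubiquitinase gene Usp11 was 1.41-fold lower (difference -0.50, SE 0.09, limma adjusted p = 0.00308). Pmepa1, a target of TGF-beta that dampens Smad signalling, was 1.57-fold higher (0.65, SE 0.15, limma adjusted p = 0.0106) and the co-repressor gene Tgif1 1.58-fold higher (0.66, SE 0.18, limma adjusted p = 0.0340). Among the other target genes, fibronectin (Fn1) was 2.10-fold higher (8.93 ± 0.32 in C3H, 10.00 ± 0.86 in NZO, SD, n = 5 each; limma adjusted p = 0.0447), with NZO replicate 2 within the C3H range. Fn1 passed in 2 of the 10 fits that each left out an array, those without NZO replicate 1 or 2, with a highest limma adjusted p of 0.110 over all 10, and its difference was 0.55 without NZO replicates 4 and 5 (limma adjusted p = 0.305) and 0.39 with the stellate covariate. Tgif1 passed in 3 of these 10 fits, those without C3H replicate 2 or NZO replicate 1 or 2. The transcription factor gene Snai2 was lower (-0.41, SE 0.09, limma adjusted p = 0.00821). Id1, a common readout of BMP signalling, measured 8.70, 8.87, 8.86, 8.74 and 8.91 in C3H and 8.54, 8.21, 8.61, 8.65 and 8.66 in NZO. The strains did not overlap, but the difference of -0.28 (SE 0.09, limma adjusted p = 0.0744) missed the threshold. The Id1 difference was -0.36 without NZO replicates 4 and 5 (limma adjusted p = 0.0744). It was -0.52 with the acinar covariate (limma adjusted p = 0.380). With the stellate covariate it was -0.41 and passed (limma adjusted p = 0.0081). Id2 differed by 0.17 (95% confidence interval -0.03 to 0.37) and Id3 by 0.09 (95% confidence interval -0.18 to 0.35). Ctgf was not analysed here.

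**Figure D4:**
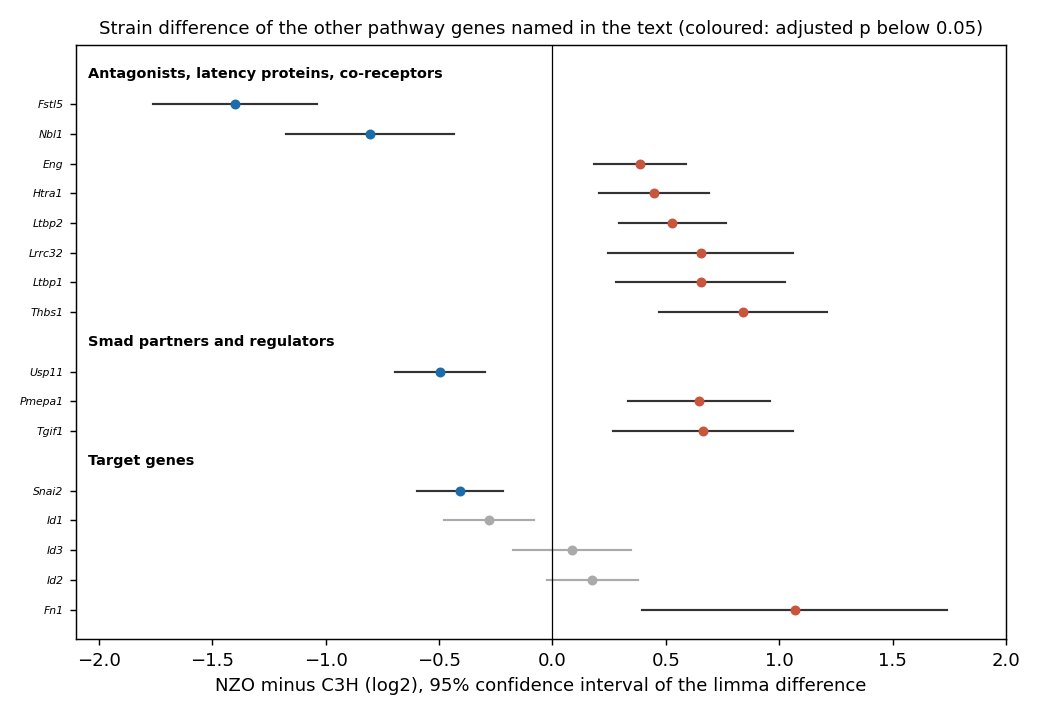
Difference NZO minus C3H in log2 units, with the 95% confidence interval of the limma difference, for the other pathway genes named in the text. Coloured points passed at an adjusted p below 0.05 over all genes (red higher in NZO, blue lower) and grey points did not. The 9 red points lie between 0.39 (Eng) and 1.07 (Fn1) and the 4 blue points between -1.40 (Fstl5) and -0.41 (Snai2).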

How the data were processed

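RNA of islets from 5 C3H and 5 NZO samples was measured on whole-transcript Affymetrix arrays, from 150 ng of RNA with an integrity number above 8, per the labels' protocols. The authors deposited log2 values, which, as the submitters' processing notes name, came from RMA and Expression Console of Affymetrix. RMA corrects background and forces arrays to 1 distribution. Differences can be shrunk where signal is dim or near saturation. Version, probe set library and build were not given in the sources.

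Of 35556 probe sets, 21789 carried exactly 1 gene symbol, 1621 several and 12146 none. The brightest probe set by mean was kept for each of 19938 genes, and each member had 1 probe set. NZO and C3H were compared by limma (version 3.58.1, lmFit then eBayes; R 4.3.3). The test was two-sided, p-values were adjusted over all genes by Benjamini-Hochberg, and 0.05 was the threshold. SEs and 95% confidence intervals are those of the limma difference. On simulated data with 19938 genes the fit recovered 60% of genes changed by 0.5 log2 units and 98% of those changed by 1, with 9 false calls. The simulated noise was normal, independent between genes and of equal spread in both strains. It held no differences in tissue makeup between arrays, so the 9 does not measure false calls in the real data. The labels do not say whether samples are separate animals or pools and give no batch, so p-values reflect only how these samples vary, which may be technical, and their number limits the precision. Replicate numbers follow the order of deposition.

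Members and lists were chosen with earlier results of these data known. Named were all members that passed or did not overlap, the 6 next by p, 16 measured islet-related members, the 8 brightest, and up to 6 passing genes of each pathway list with Id1, Id2 and Id3. Further members are named for their values only. Alternatives were brightness filters, the mean of probe sets, centring, another variance prior, array weights, covariates, and left-out arrays. The stellate covariate and leaving out C3H replicate 4 with NZO replicates 4 and 5 were chosen after seeing the data.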

Additional observations from a re-analysis of the deposited data

Results flagged for a closer look

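In 4 of the strain groups of the named genes, an array stood apart from the other 4 of its strain by more than 0.71 of the group's whole range, out of 82 groups examined. Chance gives about 1 in 20. Bmp1 was 9.57 on C3H replicate 4 against 9.81 to 9.84 on the other C3H arrays, and Smad4 was 10.06 there against 10.22 to 10.28. Id1 was 8.21 on NZO replicate 2 against 8.54 to 8.66 on the other NZO arrays. Nbl1 was 7.40 on NZO replicate 3 against 8.04 to 8.29.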

How the results depend on the processing

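The labels link no C3H sample to an NZO sample, so no paired analysis was made. The count of members higher in NZO was 3, and it was 10 with array weights, 0 with the acinar covariate, 1 without NZO replicates 4 and 5, 1 with the stellate and fibroblast covariate, 1 without NZO replicates 4 and 5 and C3H replicate 4, and 1 to 13 with single arrays left out. The count of members lower was 4, and it was 1 above median brightness, where Lefty1, Smad9 and Bmpr1b were not tested, 7 with array weights, 1 with the acinar covariate, and 3 to 6 with single arrays left out. For the other pathway genes the higher count of 9 became 23, 0, 2, 3 and 2 under the same settings in the order given for the members, and 3 to 22 with single arrays left out. The lower count of 4 became 7 with array weights, 1 with the acinar covariate and 5 with centred arrays. It was 6 with the stellate and fibroblast covariate and 6 without NZO replicates 4 and 5 and C3H replicate 4. With any single array left out it stayed at 4. Acta2, Dcn, Col1a1, Col1a2 and Col3a1 are both pathway genes and part of the stellate and fibroblast score. Calls over all 19938 genes changed too, from 2010 in either direction in the main fit. They numbered 4125, 223, 1105, 1291 and 1752 under the settings in the order given for the members higher in NZO. With single arrays left out they numbered 1441 to 2701, and above median brightness 1714 of 9969 genes.

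With the acinar covariate the difference changed sign in Bmp1 (-0.0408), Bmp4 (-0.33), Bmpr1a (-0.11), Bmpr2 (-0.0422), Fst (-0.28), Inhba (-0.78), Smad3 (-0.26), Smad7 (-0.0355), Tgfb1 (-0.32), Tgfb3 (-0.31), Tgfbi (-0.53), Tgfbr1 (-0.20), Tgfbr2 (-0.26), Fn1 (-0.47), Id2 (-0.20), Id3 (-0.34), Pmepa1 (-0.0035), Tgif1 (-0.26), Lrrc32 (-0.27) and Ltbp1 (-0.28). Without NZO replicates 4 and 5 it did so in Bmp4 (-0.0857), Bmpr1a (-0.0307) and Id3 (-0.04), and without C3H replicate 4 as well in Bmp4 (-0.0708), Bmpr1a (-0.0814), Tgfbr1 (-0.0054) and Id3 (-0.11). With the stellate and fibroblast covariate it did so in Bmp4 (-0.0853), Bmpr1a (-0.0542), Inhba (-0.0782) and Id3 (-0.0337), with centred arrays in Bmpr1a (-0.0203), and with array weights in Bmpr1a (-0.0388) and Smad4 (-0.0275). With single arrays left out the range spanned 0 for Bmp4 (-0.0205 to 0.096), Bmpr1a (-0.0484 to 0.0386), Tgfb2 (-0.15 to 0.0756) and Id3 (-0.0133 to 0.14). Another variance prior ended the calls of Smad3, Fn1, Lrrc32 and Tgif1. Through their correlation with strain alone, the acinar and stellate covariates would widen the SE of a strain difference 2.06-fold and 1.17-fold. The fitted SE also depends on the residual spread. For Smad3 it was 0.18 in the main fit, 0.27 with the acinar and 0.08 with the stellate covariate. For Lefty1 it was 0.08, 0.17 and 0.09. Beyond this the cause of the changes was not tested. Values near the low end of an array limit what can be said of Lefty1, Bmp2, Bmpr1b and Fstl5.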
